A study of Ovis aries with 18 samples.

Results

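Connexins are the proteins of gap junctions, channels through which ions and small molecules pass directly from one cell to the next. The connexin genes examined in sheep embryos were GJA1, GJA4, GJB2, GJB5, GJC1 and GJD2, taken by name from the table of gene counts. GJD2 was selected on these same pools, for its lower counts in embryos whose sires had received methionine, and the others stand beside it as further genes of the family. Of the 6 genes, 5 have a row among the 20092 genes of the table and all 5 passed the filter on low counts, while GJB2 was not analysed here.

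A gap junction forms when connexin hexamers of neighbouring cells dock to each other, and cells usually express several connexins with different permeability. In the blastocyst, gap junctions couple cells within the inner cell mass and within the trophectoderm, the outer epithelium that later contributes to the placenta. GJA1 encodes the most widely expressed connexin, and GJB5 encodes a connexin of trophoblast and skin. GJA4 couples the oocyte to its granulosa cells and is also found in endothelium. GJC1 acts in the early heart and in vascular smooth muscle, GJB2 in the cochlea and skin, and GJD2 in electrical synapses between neurons and in pancreatic beta cells.

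Expression was measured by RNA sequencing in 12 pools of 5 blastocysts, a stage with inner cell mass and trophectoderm. Of these, 6 pools were sired by control Polypay rams on a basal diet (Ram410, Ram423 and Ram444, 2 pools each). The other 6 pools were sired by Polypay rams on the same basal diet topped before puberty with methionine (1.5 g) in rumen-protected form, which escapes breakdown by rumen microbes (Ram424 with 4 pools, Ram498 and Ram511 with 1 pool each). Because 4 of the 6 methionine pools share a sire, the mean of that group leans on Ram424, and the dam of each pool is not in the labels.

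Total counts were 1173289 to 1554651 in control and 1017847 to 2398589 in methionine pools, and 18934 to 19575 genes had at least 1 count. Reads were amplified without molecular identifiers, so counting intervals cover counting error only. Control pool Embryo444_2 and methionine pool Embryo511_1 stood apart: their Spearman correlations over genes with any other pool were 0.526 to 0.626, against 0.806 to 0.955 among the other 10 pools. KRT8, a keratin of the trophectoderm, had 114 CPM in Embryo444_2 and 42.0 CPM in Embryo511_1 with a median of 5330 CPM over all pools. POU5F1, a factor of the inner cell mass, had 13.9 and 39.1 CPM there with a median of 303 CPM. All 6 trophectoderm markers were below their median in both libraries. DPPA4, another inner cell mass marker, was highest of all pools in Embryo444_2 at 43.9 CPM but at 3.91 CPM in Embryo511_1, with a median of 16.5 CPM. NANOG, also of the inner cell mass, was at 9.76 CPM in Embryo444_2 and 7.81 CPM in Embryo511_1 with a median of 10.4 CPM. Where leaving out these libraries moved the fold change of a connexin gene by over 1.5 times, the value without them is given. Fold changes of other genes and of gene lists are given over all pools only, so their dependence on these libraries is not shown. The 2 most alike pools were Embryo424_1 and Embryo424_2 (Spearman correlation 0.955), whose counts still differed by more than counting noise (chi-square of 3.29 per degree of freedom).

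Counts were scaled to CPM, the count of a gene relative to the scaled total of its pool, with edgeR's TMM factors. CPM is not divided by transcript length, so levels are compared between pools and not between genes. Diets were compared by edgeR's quasi-likelihood test over 16488 genes, those that reached 15 counts in 4 or more pools, with Benjamini-Hochberg FDR under 0.05 for a call. By this test 0 genes (0% of those tested) were called, the smallest FDR was 0.584, and 720 genes with a lower and 586 with a higher level in methionine pools had an unadjusted p under 0.05. Since pools of the same ram have a common sire, p-values over pools measure the spread between pools and not between rams. Other tools called 5 genes (edgeR's likelihood-ratio test) and 16 genes (DESeq2).

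GJD2, the neuronal and beta-cell connexin, had its 3 lowest CPM values in pools sired by Ram424. The counts in control pools were 65 and 71 for Ram410, 47 and 49 for Ram423, and 33 and 49 for Ram444. In methionine pools they were 20, 23, 24 and 24 for Ram424, 41 for Ram498 and 16 for Ram511. All 4 pools of Ram424 were below every control count, although 3 of them had the highest total counts of all 12 pools. The 95% exact Poisson intervals were 22.7 to 46.3 for the 33 counts of Embryo444_1 and 29.4 to 55.6 for the 41 counts of Embryo498_1, so these pools could not be told apart by counting.

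On the CPM scale GJD2 was at 48.2 and 49.5 in the pools of Ram410, 33.1 and 31.0 in those of Ram423, and 23.1 and 34.2 in those of Ram444. The methionine pools were at 9.42, 12.8, 16.7 and 11.6 CPM for Ram424, 24.3 CPM for Ram498 and 15.6 CPM for Ram511. The groups overlapped by a single step, since Embryo498_1 was above Embryo444_1, while the other 5 methionine pools were below every control pool. The means were 36.5 ± 10.3 CPM (SD, n = 6) in control pools and 15.1 ± 5.24 CPM (SD, n = 6) in methionine pools, a log2 fold change of -1.28 (standard error 0.30), or 2.42-fold. This difference is the one for which the gene was picked, and it is given without a test. In a pool of whole embryos, fewer cells expressing a gene and less RNA per cell cannot be told apart.

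With the pools of each ram summed, GJD2 was at 49.3, 32.3 and 28.6 CPM for control rams Ram410, Ram423 and Ram444 and at 12.5, 25.2 and 16.2 CPM for Ram424, Ram498 and Ram511. Every methionine ram was thus below every control ram, by a gap of a few CPM between Ram498 and Ram444. Over all tested genes 4.12% showed this order, which for GJD2 follows from how it was picked. For GJD2 the log2 fold change was -1.31 without Embryo444_2 and Embryo511_1, and -1.05 (standard error 0.43) with summed pools. Without the 4 pools of Ram424 it was -0.85 (standard error 0.45), resting on 1 pool of Ram498 and 1 of Ram511. Among the control rams, both pools of Ram410 were above all other pools.

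**Figure D1:**
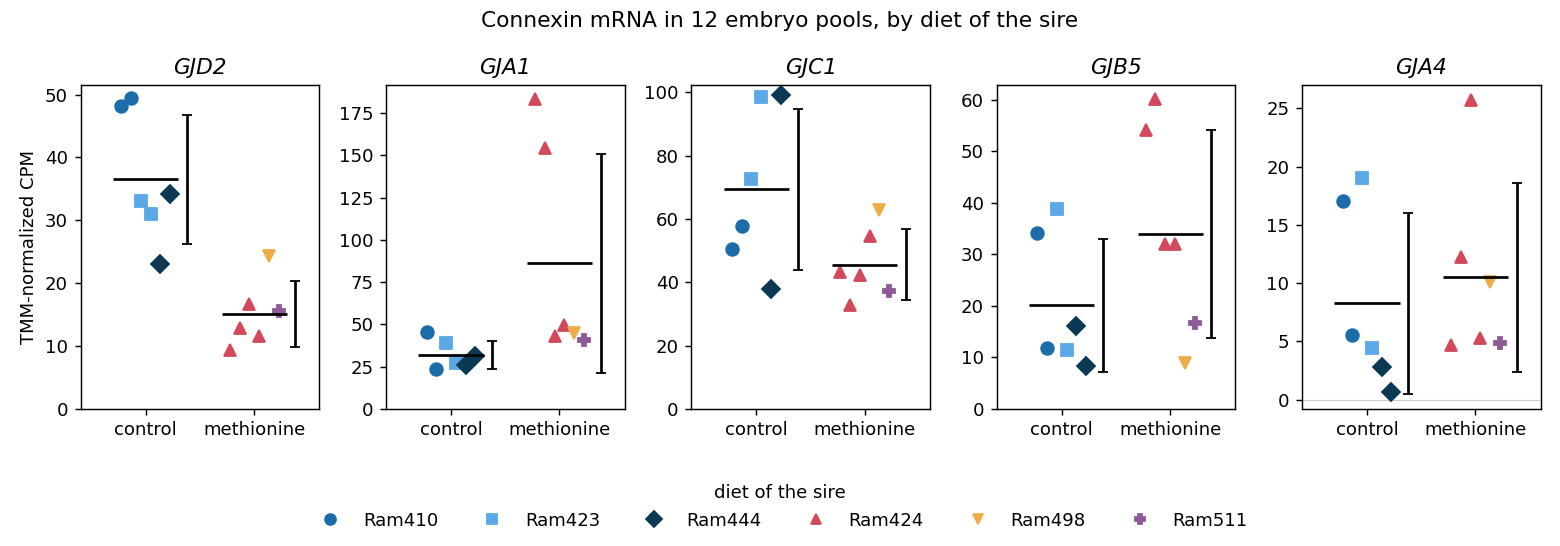
TMM-normalized CPM (y axis) of the 5 listed connexin genes that were tested, with 1 point per embryo pool coloured by the sire, control pools left and methionine pools right. The horizontal line is the mean and the bar beside it ± 1 SD over 6 pools. The GJD2 points of Ram424 lie between 9.42 and 16.7 CPM, and only Embryo424_1 and Embryo424_2 lie above 100 CPM for GJA1.

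GJA1, the most widely expressed connexin, had a higher mean in methionine pools, and 2 pools carried most of it. Control pools were at 45.2 and 23.7 CPM for Ram410, 38.7 and 27.2 CPM for Ram423, and 25.9 and 31.4 CPM for Ram444. Methionine pools Embryo424_1 and Embryo424_2 were at 184 and 154 CPM, from 390 and 277 counts. Those 2 pools were far above the rest, whereas Embryo424_3 and Embryo424_4, from the same sire, were at 43.1 and 49.4 CPM, Embryo498_1 at 45.1 CPM and Embryo511_1 at 41.0 CPM. Of the lower 4 methionine pools, Embryo424_4 was above every control pool and the other 3 were below Embryo410_1 alone, the only control pool in the overlap.

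The mean GJA1 level was 86.1 ± 65.0 CPM (SD, n = 6) in methionine pools and 32.0 ± 8.36 CPM (SD, n = 6) in control pools, a log2 fold change of 1.43 (standard error 0.40) that did not pass edgeR's quasi-likelihood test after adjustment (FDR 0.584). GJA1 was among the genes with an unadjusted p under 0.05. With pools summed per ram it was at 34.5, 33.0 and 28.6 CPM for control rams and 114, 46.8 and 42.6 CPM for Ram424, Ram498 and Ram511, so that each methionine ram was above each control ram, an order that 3.44% of tested genes showed. It was the only one of the 12 tested connexin genes other than GJD2 with rams apart in that direction, and 0 of the 12 had them apart in the opposite one. Without the pools of Ram424 the log2 fold change of GJA1 was 0.43 (standard error 0.38), and with Embryo424_1 and Embryo424_2 summed into a single library it was 1.13 (standard error 0.38).

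GJC1, a connexin of the early heart and of vascular smooth muscle, had a lower mean in methionine pools with wide overlap. Control pools were at 50.4, 57.9, 72.5, 98.6, 37.7 and 99.0 CPM for Embryo410_1, Embryo410_2, Embryo423_1, Embryo423_2, Embryo444_1 and Embryo444_2. Methionine pools were at 43.3, 32.9, 42.4 and 54.7 CPM for Ram424, 62.9 CPM for Ram498 and 37.1 CPM for Ram511. The highest methionine pool exceeded 3 of the 6 control pools, and the 2 pools of Ram444 lay at either end of the control range. The log2 fold change was -0.60 (standard error 0.27, FDR 0.617 by edgeR's quasi-likelihood test), with an unadjusted p under 0.05, and it was -0.43 (standard error 0.27) without Embryo444_2 and Embryo511_1 and -0.46 (standard error 0.44) without the pools of Ram424.

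GJB5, a trophoblast connexin, was high in the pools of Ram424 and low in the other methionine pools. The 4 pools of Ram424 were at 54.1, 60.2, 32.0 and 32.0 CPM, while Embryo498_1 was at 8.89 CPM and Embryo511_1 at 16.6 CPM. Control pools were at 34.1 and 11.9 CPM for Ram410, 38.7 and 11.4 CPM for Ram423, and 16.1 and 8.37 CPM for Ram444. Embryo424_1 and Embryo424_2, the pools with the high GJA1 levels, were also the highest for GJB5. The log2 fold change of 0.77 (standard error 0.47) had an FDR of 0.702 by edgeR's quasi-likelihood test, and without the pools of Ram424 its sign turned, to -0.67.

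GJA4, the connexin of the oocyte and of endothelium, had 1 to 37 counts per pool and reached 15 counts in 5 of 12 pools. It ranged from 0.70 to 19.0 CPM in control pools (median 5.003) and from 4.71 to 25.7 CPM in methionine pools (median 7.70). The highest methionine pool was Embryo424_3, and the highest control pools were Embryo423_1 with 19.0 CPM and Embryo410_1 with 17.0 CPM, so the groups overlapped, while 3 control pools lay below every methionine pool and Embryo424_3 above every control pool. The log2 fold change was 0.34 (standard error 0.62, FDR 0.904 by edgeR's quasi-likelihood test). It changed sign without Embryo424_3 (-0.13), without all pools of Ram424 (-0.10) and without the pools of control ram Ram444 (-0.13). Without Embryo444_2 and Embryo511_1 it was 0.22 (standard error 0.57).

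A further 11 connexin genes of the table were examined, of which GJA3, GJD4 and GJE1 did not reach 15 counts in any pool and were not tested. Of the 12 tested connexin genes other than GJD2, 0 passed the FDR threshold. At an unadjusted p under 0.05, GJC1, GJA5 and GJB1 (3 of 12) were lower in methionine pools, where 4.37% of all tested genes were, and GJA1 (1 of 12) was higher, where 3.55% were. That fit takes no account of shared sires. With the ram as a random effect 0 of the 12 had an unadjusted p under 0.05, against 355 of all 16488 tested genes. With pools summed per ram 2 of the 12 did, GJA1 and GJA5, against 572 of all 16488. The median log2 fold change was -0.17 over the 12 genes and 0.01 over all tested genes. None of the 13 had every pool of a diet apart from every pool of the other, an order found for 0.194% of all tested genes with lower levels in methionine pools and for 0.158% with higher ones.

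**Figure D2:**
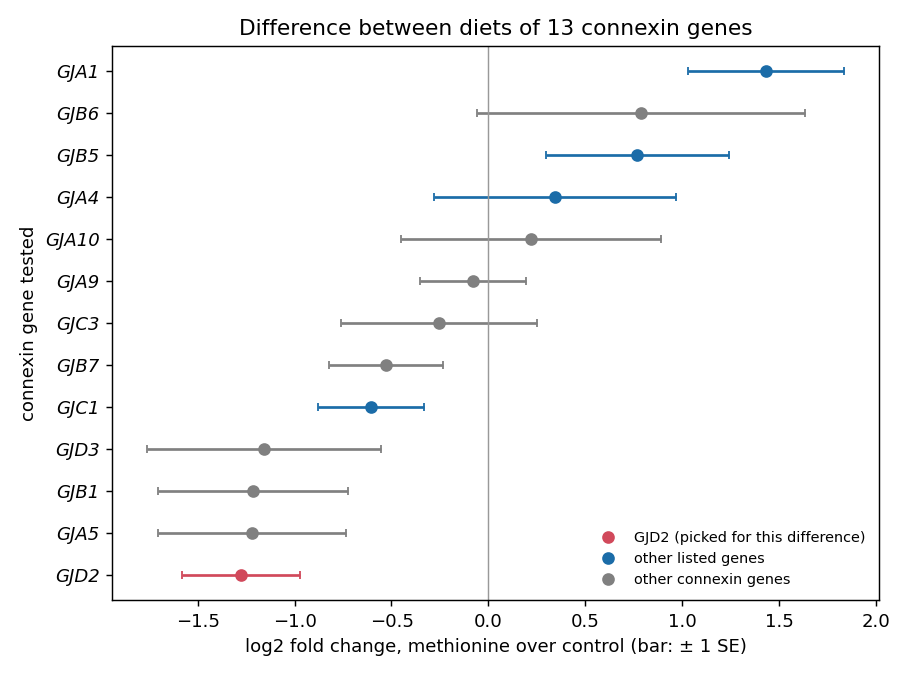
Log2 fold change of methionine over control pools (x axis) of the 13 tested connexin genes (y axis), with bars of ± 1 standard error from edgeR's fit to 12 pools. GJA1 is at the upper end with 1.43 and GJD2, which was picked for this difference, at the lower end with -1.28.

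GJA5, a connexin of atrial muscle and arterial endothelium, had high values in 2 control pools. Embryo410_2 was at 167 CPM and Embryo423_2 at 90.4 CPM, whereas the other control pools were at 15.3 to 35.0 CPM and the methionine pools at 22.3 to 30.5 CPM. Its change of -1.22 on the log2 scale (standard error 0.48, FDR 0.590 by edgeR) became -0.57 without Embryo410_2 and -0.72 with the ram as a random effect. GJB1, a connexin of hepatocytes and Schwann cells, was at 7.04 to 28.6 CPM in control pools and at 1.41 to 15.6 CPM in methionine pools. Its log2 fold change was -1.21 (standard error 0.49, FDR 0.595 by edgeR), and -0.44 without the pools of Ram424, which held the 3 lowest values.

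The trophectoderm markers were low in the libraries that stood apart: 6 of 9 markers are in the table, none of the 6 was at 0, and their summed level was 192 CPM in Embryo444_2, 126 CPM in Embryo511_1 and 5048 to 14120 CPM in the other 10 pools. GJD2 showed no such split: Embryo444_2, at 34.2 CPM, and Embryo511_1, at 15.6 CPM, lay inside the ranges of the other pools of their diets.

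**Figure D3:**
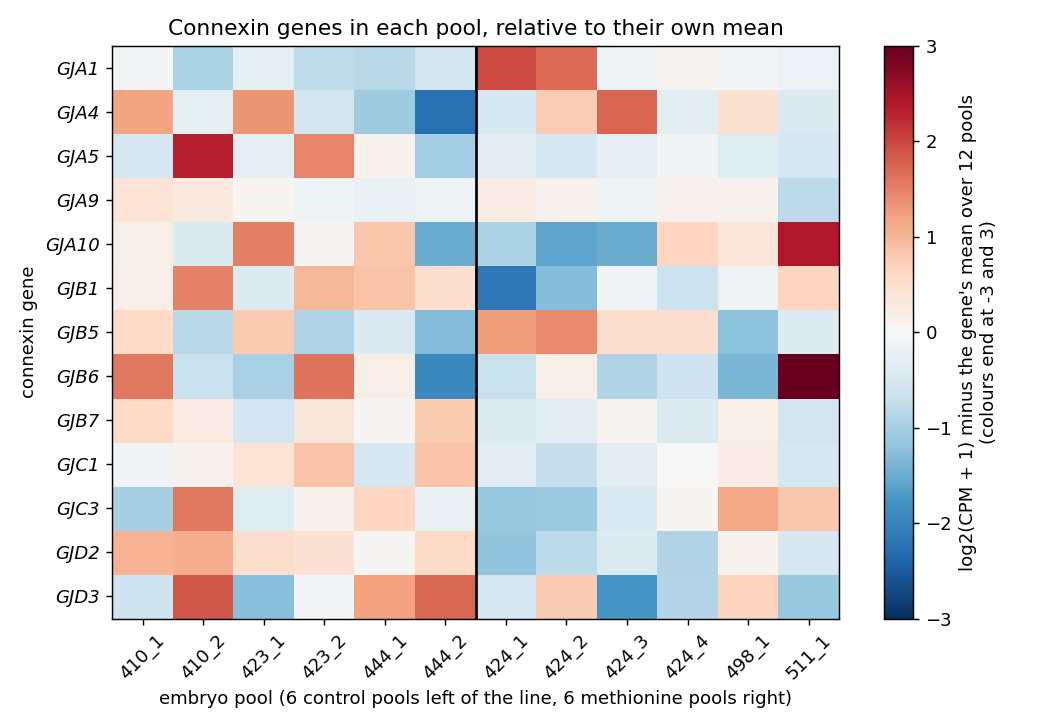
Each cell is log2(CPM + 1) of a connexin gene in 1 embryo pool minus the mean of that gene over 12 pools, with control pools left of the line and methionine pools right. GJB6 is high in Embryo511_1, GJA1 is high in Embryo424_1 and Embryo424_2, and GJD2 is below its mean in the pools of Ram424.

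GJB6 and GJA10 had their highest level in 1 library, Embryo511_1. GJB6, a connexin of the cochlea and of astrocytes, was at 264 CPM in Embryo511_1 and at 7.71 to 24.5 CPM in the rest of the methionine group, while the control group ranged from 4.88 to 68.3 CPM. GJA10, a connexin of retinal neurons, was at 76.2 CPM in Embryo511_1 and at 3.90 to 21.8 CPM in the other methionine pools. Both log2 fold changes were positive over 12 pools (0.79 and 0.22) and negative without Embryo444_2 and Embryo511_1 (-1.39 and -0.93), with FDR of 0.827 and 0.952 over 12 pools by edgeR's quasi-likelihood test. Without the pools of Ram424, where Embryo511_1 is 1 of 2 methionine pools left, they were 2.11 and 1.36. GJA9, GJB7, GJC3 and GJD3 had log2 fold changes between -1.16 and -0.08 with FDR of 0.663 to 0.959. Of these, GJC3 went from -0.25 to -0.54 without Embryo444_2 and Embryo511_1 and to 0.64 without the pools of Ram424, and GJA9 went from -0.08 to -0.02 without the libraries that stood apart.

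Among the listed genes, GJA1 and GJB5 had the highest Pearson correlation of log2 CPM across pools (0.754 over 12 pools and 0.757 over the 10 without Embryo444_2 and Embryo511_1), and GJD2 was negatively correlated with GJA1 (-0.708 and -0.727). These values describe 12 libraries, 4 of which share a sire.

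The genes whose log2 CPM followed GJD2 most closely over the 12 pools were AK8, an adenylate kinase (Pearson r of 0.953), GIPR, an incretin receptor (0.924), and ABCC6, a membrane transporter (0.909). Over the 10 pools without the libraries that stood apart the values were 0.962, 0.925 and 0.959. For GJA1 they were GALC (0.930), ZFR (0.930) and RAB18 (0.920), for GJB5 SLBP (0.948), URI1 (0.935) and CNOT7 (0.923), for GJC1 KCNJ8 (0.918), ERMAP (0.912) and LOC101121048 (0.899), and for GJA4 AGA (0.869), CA12 (0.863) and PAF1 (0.858). Each set is the top 3 of 16488 genes, a choice that makes high values certain, and the points share library depth and sire.

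Pannexins, a separate family of membrane channels, and proteins that bind or phosphorylate connexins were examined as fixed lists. PANX1 was at 35.6 to 121 CPM in control and 69.4 to 119 CPM in methionine pools (log2 fold change 0.15, standard error 0.30). Of 18 partners and regulators, 14 are in the table and were tested, and 0 were called or had an unadjusted p under 0.05. Over all tested genes 4.37% were lower and 3.55% higher in methionine pools at that unadjusted p, so 0 of 14 is near the background. Their median log2 fold change was 0.26, and 4 of the 14 were negative, against 0.01 and 8164 of 16488 for all tested genes. Their summed level was 837 CPM in Embryo444_2, 1290 CPM in Embryo511_1 and 1143 to 1790 CPM in the other 10 pools. TJP1, a scaffold protein that binds the tail of the GJA1 product, was at 147 ± 39.2 CPM (SD, n = 6) in control and 199 ± 40.2 CPM (SD, n = 6) in methionine pools (log2 fold change 0.44, standard error 0.27, FDR 0.704 by edgeR). CNST, which takes part in connexin transport to the membrane, was at 111 ± 76.3 and 72.4 ± 17.8 CPM (SD, n = 6 each), and its log2 fold change was -0.61 (standard error 0.35, FDR 0.682 by edgeR).

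Markers of cells that a blastocyst does not hold were also counted, since GJD2 is known as a neuronal gene. Of 7 neuronal markers 6 are in the table, none was at 0 in any pool, and their summed level was 122 to 220 CPM in control and 120 to 192 CPM in methionine pools. The upper ends were Embryo444_2 and Embryo511_1, the libraries that stood apart, against 120 to 174 CPM in the other 10 pools. SNAP25, a synaptic protein, was at 16.8 to 86.5 CPM in control pools, the highest in Embryo444_2, and 28.3 to 41.7 CPM in methionine pools. Low counts of neuronal genes were thus present in every library, and the ranges of the summed level overlapped between diets. Leukocyte markers summed to 83.8 to 697 CPM in control and 127 to 318 CPM in methionine pools (3 of 4 in the table). The 2 of 6 cumulus and granulosa markers summed to 35.2 to 137 and 51.8 to 75.3 CPM, and endometrial markers (3 of 4) to 53.5 to 115 and 56.7 to 95.5 CPM. The control maxima of both lists were in Embryo444_2, where leukocyte markers summed to 169 CPM. In Embryo511_1 the lists were at 51.8 CPM (cumulus and granulosa) and 76.2 CPM (endometrial). Sperm markers (3 of 4) summed to 16.2 to 99.96 CPM in control and 29.2 to 1050 CPM in methionine pools, the highest in Embryo511_1, where TNP1, a protein of sperm chromatin, was at 993 CPM. The median of TNP1 over all pools was 4.16 CPM, so its mean in methionine pools leans on that 1 library. Of the 2 sperm markers tested 1 had an unadjusted p under 0.05 by edgeR's quasi-likelihood test. Its mean was higher in methionine pools, where 3.55% of all tested genes were. None of the neuronal, leukocyte, cumulus, granulosa or endometrial markers had an unadjusted p under 0.05, where 4.37% of all tested genes were lower and 3.55% higher. The part of such background in the connexin counts was not tested.

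Markers of the embryo lineages were not called between diets. Inner cell mass markers (3 of 6 in the table, 3 tested) had a median log2 fold change of -0.24, trophectoderm markers (6 tested) of 0.23 and hypoblast markers (5 of 6 in the table, 3 tested) of 0.28, and 0 of these 12 genes had an unadjusted p under 0.05. Over all tested genes 4.37% were lower and 3.55% higher in methionine pools at that p. SOX17, a hypoblast marker with a median of 1.44 CPM over all pools, was at 0 in Embryo511_1. The other hypoblast markers were mixed there. GATA6 (65.4 CPM, median 368) and PDGFRA (113 CPM, median 128) were below their median. GATA4 (92.8 CPM, median 27.5) and FOXA2 (13.7 CPM, median 7.31) were above it.

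**Figure D4:**
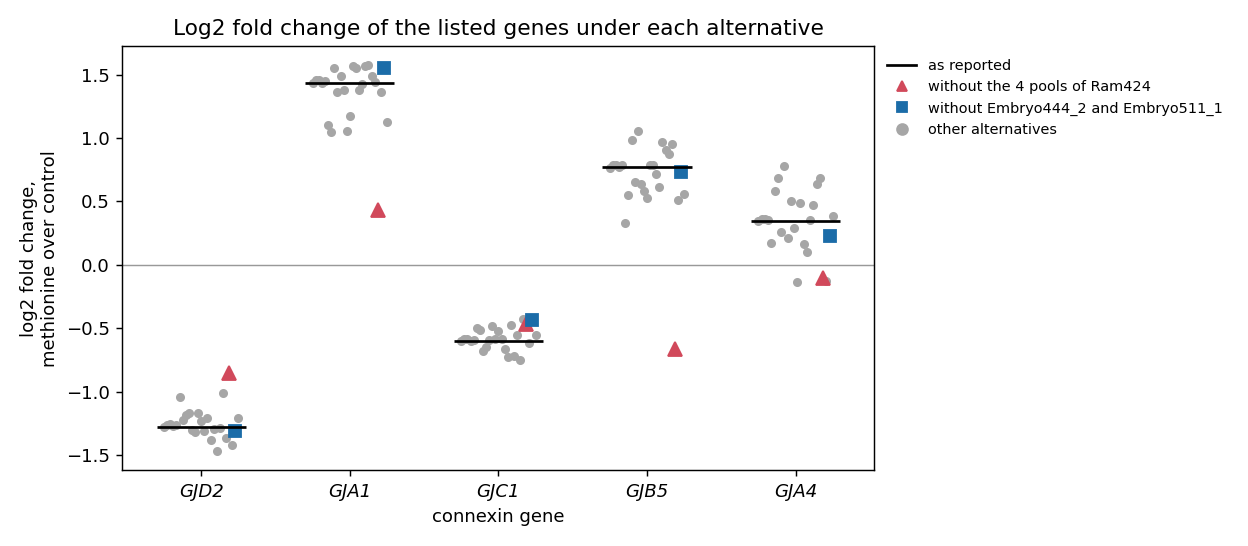
Log2 fold change of methionine over control pools (y axis) of the 5 listed genes under each alternative of filter, normalization, test or pools left out (points), with the value as reported as a black line. Leaving out the 4 pools of Ram424 (triangles) moved GJA1 to 0.43 and GJB5 to -0.67. It moved GJD2, which was picked for lower counts in methionine pools, to -0.85. Over all alternatives GJC1 ranged from -0.75 to -0.43.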

How the data were processed

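Per the methods of the study, the authors pooled embryos by sire and dam, amplified the whole transcriptome, trimmed the reads with Trimmomatic, aligned them to Oar_rambouillet_v1.0 with STAR, and took gene counts from STAR. The deposited values are gene counts, not normalized, with 0 unmapped columns, and the strand setting is not given in the sources used here. The filter of the study kept fewer genes here than the study reported. Total counts per pool were also far below the reads per pool that it states. Whether these are the exact counts that the study analysed is therefore not known. After a filter (15 counts in 4 or more pools) and TMM scaling, diets were compared by edgeR 4.0.16 (quasi-likelihood test, limma 3.58.1, DESeq2 1.42.0, R 4.3.3, Python 3.11.15), a script tested on simulated data. Standard errors are the log2 fold change over the root of the F statistic, and log2 CPM for correlations had a prior count of 2. Between pools sharing a ram the consensus correlation was 0.263. Alternatives changed the filter, normalization, test, handling of rams and pools included.

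The genes and lists were chosen with earlier results of these data known. Named genes are connexins, pannexins, fixed lists of partners and markers, and the 3 genes most correlated with each listed gene, beside a few genes that carry a marker's range. All 17 connexin symbols examined matched RefSeq, and some genes of the family are not reported here. Sperm methylation at connexin genes was not analysed here, since positions and annotation are of different builds.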

Additional observations from a re-analysis of the deposited data

Results flagged for a closer look

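Among 26 sets of 6 pools (13 connexin genes in each diet), 3 had a pool whose gap to its nearest neighbour passed Dixon's 95% critical value. Chance gives about 1 in 20 for independent sets of normally distributed values. The sets of a diet share the same 6 pools, so that rate is only a rough guide. All 3 flagged sets were in methionine pools. GJB6 was at 264 CPM in Embryo511_1 with the next pool at 24.5 CPM. GJA10 was at 76.2 CPM in Embryo511_1, the next pool being at 21.8 CPM. GJA4 was at 25.7 CPM in Embryo424_3 and at 12.3 CPM in the next. Embryo511_1, which holds 2 of the 3, was also a library that stood apart over all genes, with the smallest total count.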

How the results depend on the processing

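GJA1, GJC1, GJA5, GJB1, GJB7 and GJD3 kept their direction under all 25 alternatives. GJD2 did as well, but it was picked for lower counts in these same methionine pools, so its direction is no test. The log2 fold change of GJD2 ranged from -1.47 to -0.85 when a pool or a ram was left out, the latter without Ram424. The count of connexin genes other than GJD2 past FDR 0.05 was 0 under all 25. Over all genes, the likelihood-ratio test called 5, DESeq2 16 and the test without Embryo444_2 and Embryo511_1 called 1, MROH5. The last setting and the sum of Embryo424_1 and Embryo424_2 were chosen after seeing the data.

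Signs turned for GJC3 with pools summed per ram (0.25), for GJA10 with the ram as a random effect (-0.063), and without Embryo444_2 and Embryo511_1 for GJA10 (-0.93) and GJB6 (-1.39). With a pool or ram left out, the range was -0.13 to 0.78 for GJA4, -0.67 to 1.06 for GJB5, -0.336 to 0.093 for GJA9, -0.72 to 1.36 for GJA10, -1.15 to 2.11 for GJB6 and -0.60 to 0.64 for GJC3. The cause was not tested. GJA4 did not pass filterByExpr. No scaling moved the median of all genes by over 0.1. The sperm alternatives were not run. No paired analysis was possible because pool numbers restart within each ram and pair no control with a methionine pool. The number of connexin genes other than GJD2 with an unadjusted p under 0.05, 4 of 12 by pools, was 2 with pools summed per ram, 1 without Ram424 and 0 with the ram as a random effect. Over all 16488 tested genes the numbers in the same order were 1306, 572, 1434 and 355, so the background moved between settings as well. Ram498 and Ram511 rest on 1 pool each, which limits values without Ram424.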
